A study of Xenopus laevis with 12 samples.

Results

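The Msx genes msx1 and msx2 were followed in neural crest tissue of Xenopus laevis, a frog, after injection of a morpholino, an antisense oligonucleotide analogue, against the microRNA miR-196a. The allotetraploid frog carries each gene as a copy on a long (.L) and on a short (.S) chromosome, called homeologs, so the family comprised the 4 genes msx1.L, msx1.S, msx2.L and msx2.S. All 4 were present in both of the authors' deposited tables, among 18206 genes at Nieuwkoop and Faber stage 14 and 18556 at stage 17. The genes were taken by name, and the family was chosen because msx1.S and msx2.L changed in opposite directions at the 2 stages in these tables. Their changes are therefore a description, the adjusted p-values printed for them are those the authors deposited, and no test is drawn from them.

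The tissue came from wild-type embryos injected at the 4-cell stage into the right dorsal blastomere, per the labels, with 60 ng of the miR-196a morpholino or of a control oligonucleotide, the mismatch morpholino. There were 3 samples of each arm at stage 14 and 3 at stage 17, 12 in all. The batch label repeats the stage, so batch and stage cannot be told apart. Nothing in the labels says whether samples came from separate clutches, so the errors measure the spread between these samples, which may be technical.

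Msx proteins are homeodomain transcription factors that act mainly as repressors. In vertebrate embryos BMP signals switch their genes on in the ectoderm at the edge of the neural plate, where Wnt and FGF signals also act. In this border zone Msx1 works with Pax3 and Zic1 upstream of crest specifiers such as Snai2 and Foxd3, and later both Msx genes are used in the dorsal neural tube and in crest-derived tissue.

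Each authors' deposited table gives, per gene, a mean normalised count over the samples of the comparison, a log2 fold change and the standard error (SE) of that change, and an adjusted p-value. The tables do not record which arm is the numerator of the fold change, and signs are given as deposited, with a positive value for a higher level in the numerator arm. The same arm is taken as the numerator in both tables, which they do not state, and every comparison of signs or arm levels between the stages rests on it. Among genes past an authors' adjusted p-value of 0.05 at both stages, 575 had the same sign in both tables and 10 opposite signs. If 1 table were the other way round, the Msx genes would have the same sign at both stages. Levels per arm were computed from the mean and the fold change, taking arms of equal size. They carry no error of their own, and values of single samples were not analysed here. Depth per library is unknown.

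The 4 Msx genes were lower in the numerator arm at stage 14 and higher in it at stage 17. Their log2 fold changes ran from -1.60 to -0.95 at stage 14 (median -1.44) and from 0.51 to 1.10 at stage 17 (median 0.84) per the authors' deposited tables. At stage 14 all 4 had an authors' adjusted p-value under 0.05, in a table where 8.68% of genes did so, 5.62% with a negative and 3.06% with a positive sign. At stage 17 it was 2 of the 4, msx1.S and msx2.L, in a table where 9.96% of genes did so, 4.96% with a positive and 5% with a negative sign. The choice of the family used these calls, and nothing is read from the counts. In tissue samples, fewer cells that express a gene and less RNA per cell cannot be told apart.

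msx1 encodes the Msx factor placed upstream of the crest programme in frog border ectoderm. At stage 14, msx1.S had a computed level of 1618 normalised counts in the numerator arm and 4908 in the denominator arm, from the authors' deposited table. This is 3.03-fold lower in the numerator arm, with a log2 fold change of -1.60 (SE 0.31 and adjusted p = 1.54e-05) per the authors' deposited table. At stage 17 the order of the arms was the other way round for msx1.S. The computed levels were 2256 in the numerator arm and 1050 in the denominator arm, a 2.15-fold higher level with a log2 fold change of 1.10 (SE 0.30 and adjusted p = 0.00599) per the authors' deposited table.

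Its homeolog msx1.L had the same signs with smaller changes. The computed levels of msx1.L at stage 14 were 2820 normalised counts in the numerator arm and 5436 in the denominator arm, and the authors' deposited table gave a log2 fold change of -0.95 (SE 0.33 and adjusted p = 0.0447). At stage 17 they were 3655 and 2361, with a log2 fold change of 0.63 (SE 0.23 and adjusted p = 0.0604) per the authors' deposited table. These are the Msx values nearest to the threshold of 0.05, just inside it at stage 14 and just outside it at stage 17. The 95% interval of the msx1.L change was -1.59 to -0.31 at stage 14 and 0.18 to 1.08 at stage 17, on the log2 scale, computed from the authors' deposited tables.

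msx2 encodes the related factor, known in vertebrates from border ectoderm, dorsal neural tube and skull development. The values of msx2.L lay close to those of msx1.S at both stages. At stage 14 the computed levels of msx2.L were 1457 normalised counts in the numerator arm and 4306 in the denominator arm, with a log2 fold change of -1.56 (SE 0.27 and adjusted p = 8.62e-07) per the authors' deposited table. The stage 17 levels were 2120 and 1022, with a log2 fold change of 1.05 (SE 0.32 and adjusted p = 0.0140) per the authors' deposited table. The arms of msx2.L thus differed 2.96-fold at stage 14 and 2.07-fold, the other way, at stage 17.

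msx2.S had the lowest counts of the family and the least certain change at stage 17. Its computed levels at stage 14 were 463 normalised counts in the numerator arm and 1156 in the denominator arm, with a log2 fold change of -1.32 (SE 0.37 and adjusted p = 0.00630) per the authors' deposited table. At stage 17 the computed levels of msx2.S were 547 and 384. The log2 fold change of 0.51 (SE 0.39 and adjusted p = 0.501 per the authors' deposited table) has a 95% interval of -0.25 to 1.27, so its sign at stage 17 was not resolved by these samples.

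**Figure D1:**
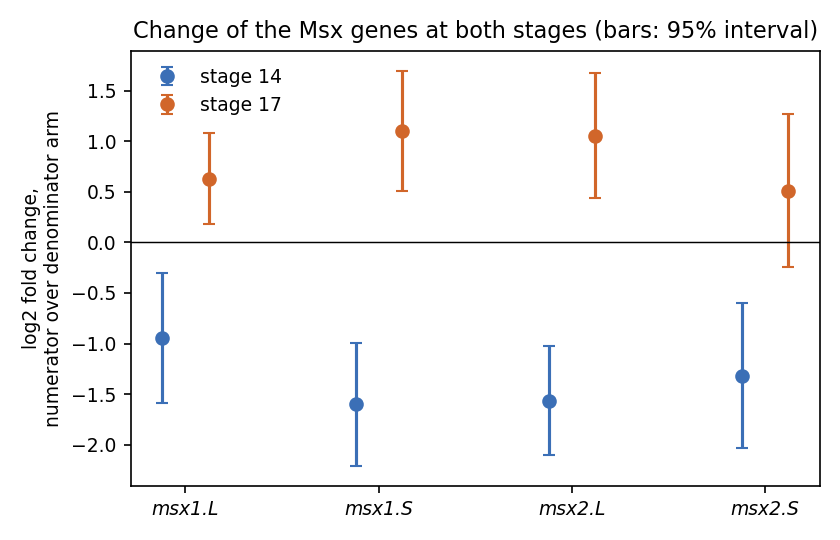
Log2 fold change of the 4 Msx genes (y axis, numerator over denominator arm) at stage 14 (blue) and stage 17 (orange); bars are 95% intervals from the authors' standard errors. The 4 stage 14 values lie between -1.60 and -0.95 and the stage 17 values between 0.51 and 1.10, and the interval of msx2.S at stage 17 crosses 0.

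Homeologs of the same gene were compared within each stage. At stage 14 the msx1.L change was less negative than that of msx1.S by 0.65 on the log2 scale, and at stage 17 it was less positive (difference -0.47). For msx2 the .L copy was more negative by 0.24 (difference -0.24) at stage 14 and more positive by 0.54 at stage 17. With the copies taken as independent, which they are not since they share libraries, the SE of these differences was 0.38 to 0.50. Over all homeolog pairs with an adjusted p-value for both copies, the median absolute difference between copies was 0.55 at stage 14 (5333 pairs) and 0.48 at stage 17 (5353 pairs). The Msx pairs, at 0.24 to 0.65, lay on both sides of these medians. The way the authors' counting assigned reads from near-identical stretches of the copies is not stated, and a value of a single copy is less certain than that of its pair.

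Summing the copies gave the level of each gene as a pair. The msx1 pair had 4438 normalised counts in the numerator arm and 10344 in the denominator arm at stage 14, a log2 ratio of -1.22, and 5911 and 3410 at stage 17, a log2 ratio of 0.79. For the msx2 pair the sums were 1920 and 5462 at stage 14, a log2 ratio of -1.51, and 2667 and 1406 at stage 17, a log2 ratio of 0.92. Both pairs had the signs of their copies, as any sum must where the copies share a sign. All 4 genes together had 2.49 times as many normalised counts in the denominator as in the numerator arm at stage 14, and 1.78 times as many in the numerator arm at stage 17.

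With the same numerator arm in both tables, the Msx levels moved more between stages in the denominator arm than in the numerator arm. With the stage 17 table the other way round, the levels of msx1.S would instead go from 4908 to 2256 and from 1618 to 1050. The computed level of msx1.S in the denominator arm was 4.68 times as high at stage 14 as at stage 17, and that of msx2.L 4.21 times. For msx2.S the ratio was 3.01 and for msx1.L 2.30. In the numerator arm the levels were 1.18 to 1.45 times as high at stage 17 as at stage 14, with msx2.L at the upper end and msx2.S at the lower. The stages were normalised separately, so these ratios were set beside the 15092 genes with a mean of at least 10 normalised counts at both stages. The median ratio of stage 17 to stage 14 over these genes was 0.966 in the denominator and 0.983 in the numerator arm. In the denominator arm 3.07% of these genes had a lower ratio than msx1.S, 3.65% than msx2.L, 6.25% than msx2.S and 9.93% than msx1.L. In the numerator arm, 67.0% to 79.8% of these genes had a lower ratio than the Msx genes. The stages come from different samples in batches that coincide with the stage, and the move between stages was not tested.

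**Figure D2:**
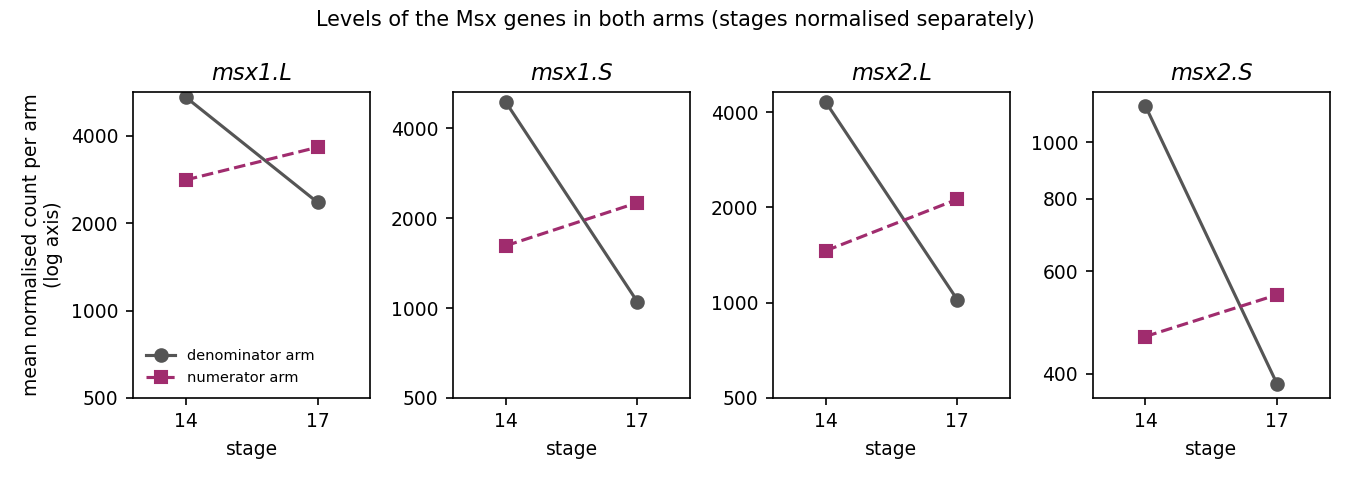
Computed mean normalised count per arm (y axis, log scale, own range in each panel) of the Msx genes at stages 14 and 17 (x axis), with the denominator arm as grey circles and the numerator arm as purple squares; the levels carry no error bars because values of single samples were not analysed. In all 4 panels the lines cross, and for msx1.S the denominator arm goes from 4908 to 1050 while the numerator arm goes from 1618 to 2256.

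The difference between the stage 17 and the stage 14 log2 fold change was 2.70 (SE 0.43) for msx1.S and 2.62 (SE 0.42) for msx2.L, computed from the authors' deposited tables. It was 1.83 (SE 0.53) for msx2.S and 1.58 (SE 0.40) for msx1.L. The SE of every stage difference takes the 2 stages as independent, which the labels do not settle. The Msx genes were chosen for this difference, so no p-value is given for it. Among the 16194 genes with an adjusted p-value at both stages, 624 had a more positive difference than msx1.S and 657 a more positive one than msx2.L. Large negative differences are not in these numbers. For msx2.S that number was 1147 and for msx1.L 1403. The median SE of the difference among the 624 genes above msx1.S was 2.17, against 0.43 for msx1.S itself. Those genes were not matched to msx1.S for counts. The ranks use the values by which the family was chosen, and nothing is read from them. The mean normalised counts of the Msx genes per the authors' deposited tables were 810 (msx2.S), 2882 (msx2.L), 3263 (msx1.S) and 4128 (msx1.L) at stage 14. At stage 17 they were 465, 1571, 1653 and 3008 in the same order, which placed msx2.S above 71.2% of genes in its table and msx1.L above 95.4%. These counts are not corrected for gene length, and the 4 genes are not ranked by them.

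The precision of the Msx values was set beside that of genes with similar counts. At stage 14 the SE of msx1.L, 0.33, was larger than that of 88.9% of the 612 genes with a mean within 0.5 log2 units on either side, whose median SE was 0.27, from the authors' deposited table. For msx2.L at stage 14 it was larger than that of 44.1% of such genes. At stage 17 the SE of msx1.L, 0.23, was below the median of such genes, 0.26, per the authors' deposited table, while for the other three it was larger than that of 71.8% to 77.9%.

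A change of sign past the authors' threshold at both stages was rare in these tables. Of the 16194 genes with an adjusted p-value at both stages, 585 (3.61%) had an adjusted p-value under 0.05 at both, and 10 (0.0618%) did so with opposite signs. Of those 10, 7 (0.0432%) were negative at stage 14 and positive at stage 17, among them msx1.S and msx2.L. The sign pattern without a threshold was common, since 2799 genes (17.3%) were negative at stage 14 and positive at stage 17. Of 5055 homeolog pairs tested at both stages, 312 (6.17%) showed it in both copies, as msx1 and msx2 did. For msx2 this rests on msx2.S, whose sign at stage 17 was not resolved.

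The other five genes with the direction of msx1.S and msx2.L were prdm13.S, rassf10.S, rasgef1b.L, fgfr4.L and ptgs2.S. They were chosen by the same values as the Msx genes and are described without a test. fgfr4.L, a receptor for FGF ligands, had log2 fold changes of -1.01 (SE 0.24) and 1.26 (SE 0.26) per the authors' deposited tables, close in size to those of the Msx genes. For rassf10.S, a Ras-association domain gene, the authors' deposited tables gave -1.50 (SE 0.44) and 2.50 (SE 0.54). For rasgef1b.L, a Ras guanine nucleotide exchange factor gene, they gave -1.03 (SE 0.33) and 2.53 (SE 0.49) per the authors' deposited tables, and for ptgs2.S, which encodes cyclooxygenase-2, -0.94 (SE 0.25) and 1.49 (SE 0.36). prdm13.S, a PR domain transcription factor gene used in neuronal specification, had an arm under 3 normalised counts at each stage. It was at least 13.3-fold lower in the numerator arm at stage 14 and at least 45.2-fold higher at stage 17, against a floor of 3 counts per arm. The reverse pattern was found for ntn1.L, hectd4.L and slc26a9.S.

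**Figure D3:**
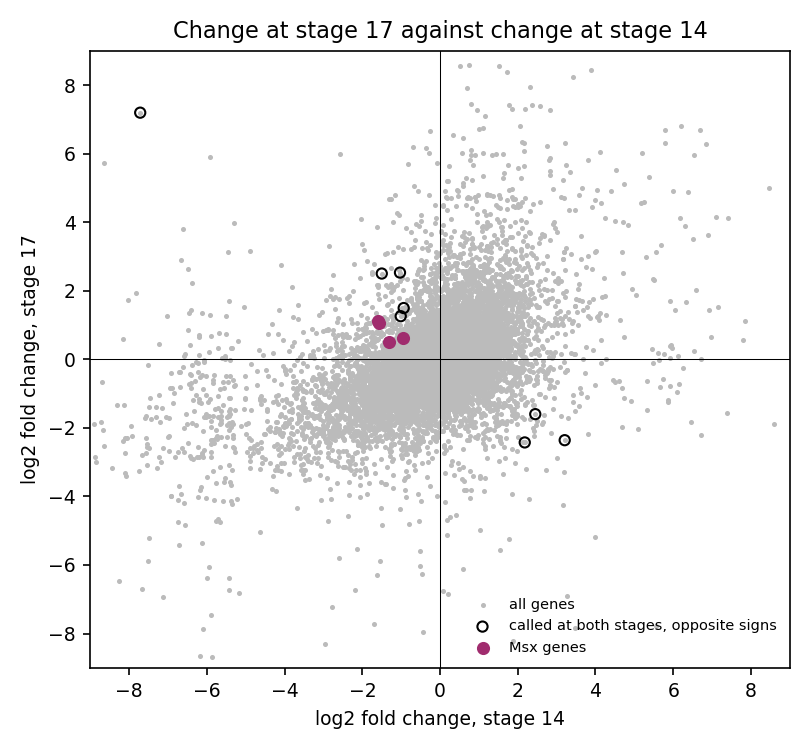
Log2 fold change at stage 14 (x axis) against stage 17 (y axis) for genes with an adjusted p-value at both stages (grey, 16171 genes within 9 log2 units of 0; 23 lie outside), with the Msx genes in purple and the other genes called at both stages with opposite signs as open circles. The 4 Msx genes lie together in the upper left quadrant, and prdm13.S has changes of the same signs far outside their range.

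The gene with the pair of changes nearest to that of msx1.S was fgfr3.L, another FGF receptor gene, at a distance of 0.027 log2 units over the 2 stages. Its log2 fold changes were -1.57 (SE 0.52 and adjusted p = 0.0324) at stage 14 and 1.10 (SE 0.45 and adjusted p = 0.108) at stage 17 per the authors' deposited tables. The next was msx2.L at 0.063, followed by bhlhe22.L at 0.12, csrnp1.S at 0.16 and ghdc.L at 0.19. For msx2.L the nearest were fgfr3.L at 0.051, msx1.S at 0.063, ghdc.L at 0.13, csrnp1.S at 0.13 and bhlhe22.L at 0.17. Only fgfr3.L and the Msx genes among these had an authors' adjusted p-value under 0.05 at a stage. The SE of bhlhe22.L and ghdc.L was over 1 at both stages per the authors' deposited tables, so their nearness carries little information. Likeness over 2 values is a loose measure.

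The genes that flank the Msx genes on the chromosomes were called at a share near that of all genes. In the RefSeq annotation of Xenopus_laevis_v10.1, used only for gene order, the 4 nearest protein-coding genes on each side of each Msx gene numbered 32, of which 18 had an adjusted p-value at each stage. At each stage 1 of the 18 had an adjusted p-value under 0.05 per the authors' deposited tables, beside 8.68% of all genes at stage 14 and 9.96% at stage 17. It was ergic1.L near msx2.L, with log2 fold changes of -2.31 (SE 0.80) at stage 14 and -3.07 (SE 0.72) at stage 17, negative at both stages per the authors' deposited tables, unlike msx2.L. The median change of the flanking genes was 0.27 at stage 14 and -0.02 at stage 17. The immediate neighbours of msx1 with values were stx18.L and stx18.S, of a SNARE protein gene, with changes from -0.46 to -0.01 and no adjusted p-value under 0.688 per the authors' deposited tables.

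RNA of genes in the pathways that drive Msx genes was read from gene lists, and the activity of the signals was not measured. The list of BMP ligands and secreted regulators holds ligands together with antagonists, so its medians give no direction of a BMP signal. Among BMP ligands and their secreted regulators, 6 of 26 genes passed the authors' threshold at stage 14, 3 in each direction, and 2 of 24 at stage 17, both positive. An adjusted p-value was given for 25 of the 26 and for 20 of the 24. The share of all genes that passed was 8.68% at stage 14 and 9.96% at stage 17. The copies of bmp4, a BMP ligand known to induce Msx genes, differed in sign at stage 14. bmp4.S had log2 fold changes of 1.67 (SE 0.40 and adjusted p = 0.00109) at stage 14, where the Msx genes were negative, and 1.27 (SE 0.56 and adjusted p = 0.148) at stage 17 per the authors' deposited tables. bmp4.L had the signs of the Msx genes at both stages, at -0.40 (SE 0.38) and 0.59 (SE 0.54), with neither past the threshold per the authors' deposited tables. cer1.S, a secreted BMP and Wnt antagonist gene, was lower in the numerator arm at stage 14 (-2.51 with SE 0.54 and adjusted p = 1.69e-04 per the authors' deposited table), and admp.L, a BMP-like ligand gene in the same list, was at least 32.2-fold higher in it at stage 17, computed from the authors' deposited table. The list medians were 0.47 and 0.75, or 0.40 and 0.63 with genes under the floor of 3 counts at their bounds, against 0.02 and 0.01 over all genes.

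The list of BMP receptors and Smads holds genes that carry the signal together with inhibitors such as bambi. Its medians therefore give no direction of a BMP signal. Some of its genes, bambi among them, are also in the list of BMP targets. At stage 14, 0 of 29 genes had an authors' adjusted p-value under 0.05 and 5 an unadjusted one. At stage 17 it was 1 of 30, the receptor gene bmpr1b.L at 0.85 (SE 0.28 and adjusted p = 0.0335) per the authors' deposited table. The list medians were 0.01 and 0.20. With 8.68% and 9.96% of all genes called, a list of this size would hold few calls at any rate, and nothing is read from the low counts.

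Other BMP target genes were called at stage 14 at a share near that of all genes. Of the list of BMP targets, 2 of 27 genes passed at stage 14, both negative, and 9 of 26 at stage 17, 8 of them positive, beside 8.68% and 9.96% of all genes. id3, a direct BMP target like the Msx genes, had log2 fold changes from -0.18 (id3.L at stage 14) to 0.13 (id3.S at both stages) with SE of 0.24 to 0.30, and none was past the threshold per the authors' deposited tables. bambi, a BMP pseudoreceptor, was negative in both copies at both stages without passing the threshold, from -1.26 (SE 0.62) to -0.42 (SE 0.48) per the authors' deposited tables. The 8 targets past the threshold and positive at stage 17 were ventx genes and hes4.S. ventx2.2.S was at 4.69 (SE 0.48 and adjusted p = 3.20e-19) and hes4.S at 2.56 (SE 0.38 and adjusted p = 2.52e-09) per the authors' deposited table. hes4.L was at -0.69 (SE 0.30) at stage 14 and 0.24 (SE 0.34) at stage 17, with neither past the threshold per the authors' deposited tables. Dlx genes, homeobox genes that share much of the ectoderm border with Msx, had 1 of 7 genes past the threshold at stage 14 and 0 of 10 at stage 17 (0 unadjusted). dlx5.L resembled msx2.L at stage 14, at -1.51 (SE 0.31 and adjusted p = 6.02e-05), and was at -0.62 (SE 0.46 and adjusted p = 0.484) at stage 17 per the authors' deposited tables, where msx2.L was positive. Its homeolog dlx5.S was at -0.48 (SE 0.33) at stage 14, dlx3.L at -0.60 (SE 0.38) and dlx3.S at -0.51 (SE 0.43). None of these was past the threshold per the authors' deposited table.

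Of the 9 pathway lists, the BMP targets and the plate border genes listed as partners of Msx had medians with the Msx signs. These medians were negative at stage 14 and positive at stage 17. The medians of the BMP targets were -0.23 and 0.18, but no target was past the threshold with opposite signs. gata2.S and gata3.L, past it at stage 14, were negative at both stages. The 8 targets past it and positive at stage 17 were also positive at stage 14. Per the authors' deposited tables gata2.S was at -1.91 (SE 0.51) and -1.78 (SE 0.49), and ventx2.2.S at 0.70 (SE 0.40) at stage 14. Among all genes 8.68% were past the threshold at stage 14, 5.62% with a negative sign. At stage 17 it was 9.96%, 4.96% with a positive sign. Of the border partners at stage 14, 5 of 25 were past the threshold and all 5 were negative, with a median of -0.46. At stage 17, 14 of 26 were past it, 13 of them positive, with a median of 1.26. The 5 border partners past it at stage 14 were myc.L, myc.S, tfap2a.L, tfap2a.S and tfap2c.L, and none of them had an adjusted p-value under 0.05 at stage 17. Those past it and positive at stage 17 included pax3 and zic1, which were not past the threshold at stage 14. Some border partners had the signs of the Msx genes within 1 gene without passing the threshold at stage 14. pax3.L had -0.46 (SE 0.32) and 1.21 (SE 0.31), and zic2.S -0.24 (SE 0.28) and 2.66 (SE 0.38), per the authors' deposited tables. tfap2a.S instead was past the threshold at stage 14 and negative at both stages. Its log2 fold changes were -1.35 (SE 0.23 and adjusted p = 6.70e-07) and -0.54 (SE 0.23 and adjusted p = 0.135) per the authors' deposited tables.

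The difference between stages was tested for genes outside the Msx family by a normal test on the authors' log2 fold changes and SE with Benjamini-Hochberg adjustment over 16194 genes. Under it 244 genes (1.51%) had an adjusted p-value under 0.05, and 210 of these were more positive at stage 17. Among the 25 border partners 10 passed, all more positive at stage 17, the direction of most genes called. Of the BMP targets 4 of 26 passed, of the receptors and Smads 0 of 29 (3 unadjusted), and of the Dlx genes 0 of 7 (2 unadjusted). Such calls were not particular to the border partners. Of the neural plate markers 6 of 16 passed and of the crest genes 4 of 19. For the FGF genes it was 5 of 29, fgfr4.L among them, and for the Wnt genes 4 of 38. It was 2 of 20 BMP ligands and regulators, 2 of 28 Notch genes and 1 of 12 epidermis markers. All calls in these lists were more positive at stage 17. For pax3.S, whose protein works with Msx1, the difference was 1.74 (SE 0.48 and adjusted p = 0.0274 by the normal test), beside 2.70 for msx1.S and 1.58 for msx1.L. All of these calls depend on the normal distribution: under a Student distribution with 8 degrees of freedom 0 genes passed, with 862 at an unadjusted p-value under 0.05 against 1389 under the normal test. The smallest adjusted p-value under the Student distribution was 0.325. Which distribution is right for these SE was not tested, so the 0 does not show that the changes are alike at both stages.

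Crest genes that act after the border had negative changes in all 19 genes at stage 14 and in 18 of 19 at stage 17, where sox9.L was at 0.09 (SE 0.38) per the authors' deposited table. Of the 19 genes, 16 passed at stage 14 and 6 at stage 17, all negative, with medians of -3.25 and -1.14. Among all genes 5.62% passed with a negative sign at stage 14 and 5% at stage 17. snai2.L was at -3.15 (SE 0.38) and -0.92 (SE 0.43 and adjusted p = 0.187) and snai2.S at -2.07 (SE 0.80) and -1.75 (SE 0.50 and adjusted p = 0.00869) per the authors' deposited tables. At stage 17 the Msx genes were thus higher in the arm in which the crest genes past the threshold were lower.

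Wnt, FGF and Notch genes were mixed at stage 14 and positive at stage 17 where they passed. Among all genes 8.68% passed at stage 14 and 9.96% at stage 17, 4.96% with a positive sign. The Wnt and FGF counts at stage 14 were near that share, and nothing is read from them. For Wnt it was 4 of 41 genes at stage 14, 3 of them positive, and 10 of 39 at stage 17, all positive. For FGF it was 3 of 29, with fgfr4.L and fgfr3.L negative, and 7 of 29, all positive. For Notch it was 4 of 29, 3 of them negative, and 11 of 30, all positive. The Wnt target axin2.L, at 1.30 (SE 0.27 and adjusted p = 1.12e-04) per the authors' deposited table, stood near msx1.S in size at stage 17.

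**Figure D4:**
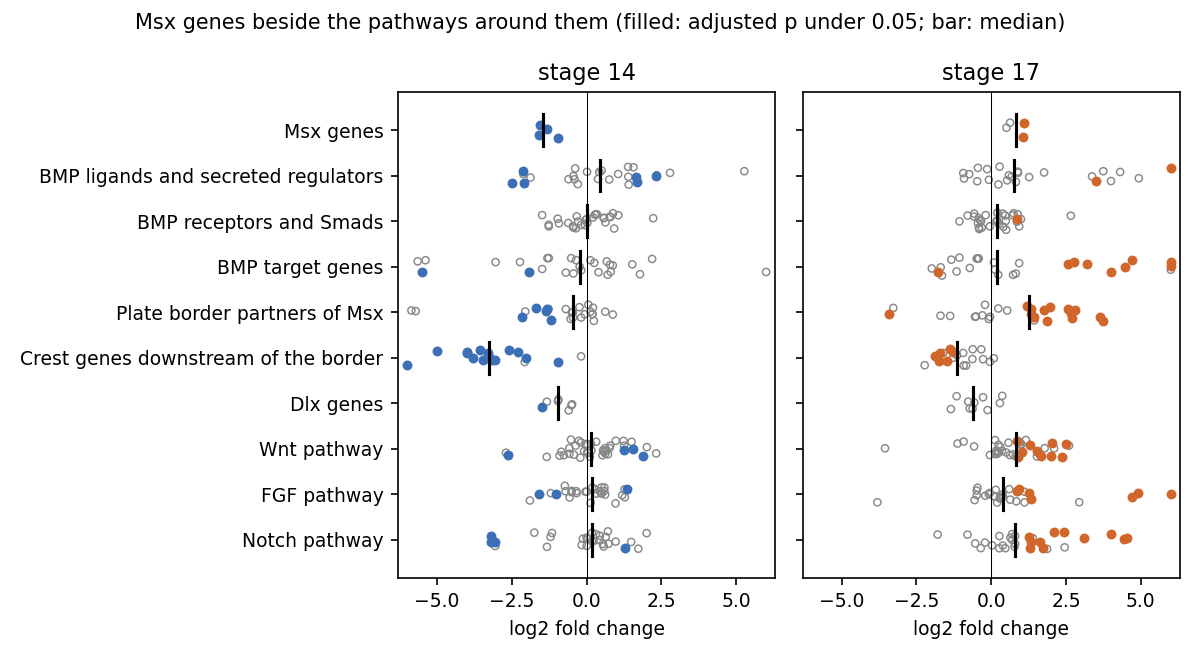
Log2 fold changes (x axis) of the Msx genes and of 9 gene lists (rows) at stage 14 (left) and stage 17 (right), 1 point per gene, filled where the authors' adjusted p-value was under 0.05, with the median as a black bar; 7 points beyond 6 log2 units are drawn at the limit. The Msx and border partner medians are negative at stage 14 and positive at stage 17, while the crest and Dlx medians are negative at both stages.

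Markers of neighbouring tissues differed between the arms, with the same sign of the median at both stages. The medians were -2.25 and -0.85 for epidermis and 0.98 and 2.53 for neural plate. The share of all genes past the threshold was 8.68% at stage 14 and 9.96% at stage 17. Of 13 epidermis marker genes, 6 were past the threshold at stage 14, all negative, and their summed computed level was 52978 normalised counts in the numerator and 156219 in the denominator arm. At stage 17, 5 of 13 were past it, 4 of them negative, with sums of 82018 and 167692. Of 16 neural plate marker genes, 8 passed at stage 14 and 14 at stage 17, all positive, with sums of 49119 and 25153 at stage 14 and 29102 and 7109 at stage 17. Mesoderm and muscle markers were low, with sums of 191 and 172 at stage 14 and 201 and 223 at stage 17. Of these genes 7 of 10 were positive at stage 14 and 8 of 12 at stage 17, and 1 passed at each stage, myod1.S and tbxt.S, both negative. At each stage 8 mesoderm and muscle genes had an adjusted p-value. The endoderm and notochord list had sums of 1119 and 314 at stage 14 and 456 and 337 at stage 17. The notochord genes not.L, at 3.57 (SE 0.70), and not.S, at 4.11 (SE 1.02), were past the threshold at stage 14 per the authors' deposited table, and 0 of 6 genes of that list were at stage 17 (0 unadjusted). Only 4 of these 6 had an adjusted p-value. Among defining muscle markers, myod1.S was under 3 normalised counts in the numerator arm at both stages, while myf5.L at stage 14 and actc1.L at stage 17 were under 3 in the denominator arm. The crest markers snai2, sox9 and foxd3 were above 3 normalised counts in every copy, arm and stage, while sox10.S was under 3 in the numerator arm at stage 14. The part of a changed share of epidermis, neural plate or notochord in the Msx values was not tested.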

How the data were processed

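RNA of 12 neural crest samples was sequenced from unstranded libraries, per the labels, and the submitters' processing notes list STAR 2.7.3a and DESeq2. Genome build, annotation and counting are not given in the sources used here. The authors deposited 1 table per stage, assigned to its stage by its name, laid out like the output of DESeq2. It holds a mean normalised count (a signal that was scaled between libraries by the authors), a log2 fold change and its SE on the log2 scale, their ratio as a test score, and a p-value and adjusted p-value, per the file headers. The arms compared were inferred from the sample groups at each stage.

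Calls use the authors' adjusted p-value under 0.05. Counts of such calls out of a list include genes without an adjusted p-value, which cannot be called, while shares over all genes leave them out. At stage 17 the adjusted p-value was computed over 22197 genes, of which 16965 have one in the table, so the stages have different bases. The ranks implied by the deposited values place some of the genes missing at stage 17 among those of low p-value. Counts and shares at stage 17, also those over all genes, therefore cover only the genes in the table. Arm levels, sums and stage differences were computed in Python 3.11.15 with SciPy 1.17.1, and the arithmetic of the stage difference was tested on data simulated with normal errors, which does not check the normal assumption. RefSeq symbols matched 18129 and 18481 rows as protein-coding genes. The Msx genes and all lists were chosen with earlier results of these data known.

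Named genes are the Msx genes, those called at both stages with opposite signs, the 5 nearest to msx1.S and to msx2.L by Euclidean distance between log2 fold changes, a fixed set of BMP, border and crest genes, and examples among the 2 called genes of lowest p-value per list and stage. Named outside this rule, after their values were seen, are myc.S, tfap2c.L, myf5.L, actc1.L, sox9, sox10.S, foxd3 and flanking genes. Sequences of the Msx genes were not used here.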

Additional observations from a re-analysis of the deposited data

Results flagged for a closer look

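Among named genes outside the Msx family and not chosen for opposite signs, 21 had a change that differed between stages, with adjusted p-values from 2.03e-09 to 0.0411 by the normal test on the authors' deposited values. All 21 changes were more positive at stage 17, the direction of 210 of the 244 genes called by this test over all genes. Several of the 21 were named for a low authors' p-value at a stage, a choice not independent of the difference. Nothing is therefore read from their shared direction. None of the 21 is past the threshold under a Student distribution with 8 degrees of freedom. The differences below are stage 17 minus stage 14 on the log2 scale.

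Genes in the border partner list differed by 3.10 for zic1.S, 1.72 for zic1.L, 2.90 for zic2.S, 1.67 for pax3.L, 1.74 for pax3.S and 2.09 for myc.L. BMP targets and regulators differed by 3.99 for ventx2.2.S, 4.06 for ventx2.1.S and 3.19 for cer1.S. The crest genes snai2.L and sox9.S differed by 2.23 and 2.44. Wnt and Notch genes differed by 1.87 for axin2.L, 1.39 for axin2.S, 3.09 for hes1.L and 2.53 for notch2.S. The neural plate genes sox3.L and sox3.S differed by 3.92 and 2.42, and fgf3.L by 5.48. For admp.L (5.61), fgf3.S (10.12) and foxd4l1.1.S (5.53) the denominator arm at stage 17 was under 3 normalised counts, and the size of the difference depends on the fit at that floor.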

How the results depend on the processing

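All 8 Msx log2 fold changes kept their sign when centred on the median of all genes and when the copies were summed. Neither setting could change a sign, so nothing is read from this. The medians were only 0.02 and 0.01, and the copies of each gene share a sign at each stage. All 8 kept their side of the threshold when the adjustment was recomputed over the p-values in each table. Summing moved msx1.S to -1.22 at stage 14 and 0.79 at stage 17, and msx2.S to 0.92 at stage 17, by more than their SE. At an adjusted p threshold of 0.01 the genes called numbered 926 at stage 14 and 971 at stage 17. Genes called in opposite directions numbered 5 at 0.01, msx1.S but not msx2.L among them, and 19 at 0.1, with msx1.L added, against 10 as reported. The stage difference was called for 0 genes under the Student distribution, which has wider tails. With copies averaged, the FGF median at stage 14 was -0.011, of the other sign, and the neural plate median at stage 17 was 3.79. With a mean of at least 10 normalised counts, 0 mesoderm and muscle genes were called at stage 14, because myod1.S falls under that mean. The other 75 list values did not move beyond the median SE of the list or 1.5 times the count. No paired analysis was run, because the labels name no pairs and the sample numbers are not shared between groups. Leaving out samples was not run because values of single samples were not analysed.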
